A study of Homo sapiens with 4 samples.

Results

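The genes described here are the 6 human DNA topoisomerases TOP1, TOP1MT, TOP2A, TOP2B, TOP3A and TOP3B, together with TDP1, TDP2, ZNF451 and TOPORS, 4 genes whose products act on topoisomerases trapped on DNA. They were chosen by symbol from general knowledge of the pathway, but with earlier results of these data known. They make up 10 of the 60725 genes in the deposited count table. RNA was measured in RPE1 SunTag cells, a derivative of a human retinal pigment epithelial line that is immortalized with telomerase, after transfection with control or TOP2B siRNA. The control group received the siRNA Silencer Select Negative Control No. 2, whereas the knockdown group received a Dharmacon ON-TARGETplus SMARTpool against TOP2B. Both groups were transfected with 10 nM siRNA, transfected again at 48 h and harvested 72 h after the second transfection, with 2 independent biological replicates each. Each group thus rests on 1 siRNA reagent, and the control reagent and the TOP2B pool are different products, so that an effect of the reagent and an effect of TOP2B loss cannot be told apart in these libraries. All cells carry the SunTag reporter. Total counts lay between 20310259 and 23887013 per library.

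The labelled cell type was checked against 11 markers of retinal pigment epithelium. RPE65 and TYR, which define the differentiated tissue, were at 0 counts in all 4 libraries, while MITF, OTX2, KRT8, KRT18 and CDH2 were detected. RLBP1 held 0 or 1 counts per library, and BEST1, PMEL and SERPINF1 held only 7 to 47. In CPM (counts scaled to the library size), the list summed to 1820 and 2070 in control cells and to 1530 and 1780 after TOP2B knockdown, and both knockdown sums lay below both control sums. Most of this sum came from KRT8 (means of 1225 and 963.5 CPM) and KRT18 (389.7 and 297.8 CPM). None of the 8 tested markers passed the test, 6 had a positive and 2 (KRT8 and KRT18) a negative log2 fold change, and their median was 0.21. The part of these markers in the values given for the repair genes was not tested. Markers of other cell types (9 genes, CD3E and EPCAM at 0) summed to between 4.91 and 5.80 CPM in every library.

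DNA topoisomerases relieve the twisting and tangling that arises when DNA is transcribed, copied and segregated. Type I enzymes (TOP1, the mitochondrial TOP1MT, and TOP3A and TOP3B) cut a single strand, and type II enzymes (TOP2A and TOP2B) cut both strands and pass another duplex through the gap. In each case a tyrosine of the enzyme is joined to the DNA end while the strand is open, and when religation fails this cleavage complex becomes a protein-blocked break. TOP2A is made mainly by cycling cells and peaks before mitosis, whereas TOP2B is also made by cells that no longer divide. Trapped complexes are marked with SUMO and ubiquitin, cut down by proteases, and the remaining peptide is removed by TDP1 (3′ ends, mostly TOP1) or TDP2 (5′ ends, mostly TOP2) or is cut away by nucleases, after which the break is sealed.

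The siRNA target TOP2B and its paralogue TOP2A are alike in sequence, so it was asked how far reads or siRNAs could cross between them. The most alike stretch of read length in their canonical GENCODE transcripts spans the junction of exons 13 and 14 in both genes and lies in coding sequence. It is shown because it is the place where a read from one paralogue came closest to the other. In GRCh38, the TOP2A stretch lies at chr17:40407549-40407572 and chr17:40406902-40406942 on the minus strand, and the TOP2B stretch at chr3:25630029-25630052 and chr3:25629105-25629145 on the minus strand. Capitals mark the bases that differ between the paralogues.
TOP2A: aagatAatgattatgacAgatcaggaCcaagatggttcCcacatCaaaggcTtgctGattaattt
TOP2B: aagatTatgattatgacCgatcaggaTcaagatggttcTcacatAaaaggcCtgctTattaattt
Of the 65 bases, 58 matched and 7 differed. No 65-base word of either transcript occurred in a transcript of another gene, so an exact read of that length came from a single paralogue. The longest run shared by both transcripts was 22 bases, and 8 of the 5796 words of 19 bases in TOP2B also occurred in TOP2A. The sequences of the siRNAs in the pool were not used here, so these 8 words could not be set against them.

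The promoters of both genes are shown because TOP2A is compared below with genes of mitosis, many of which carry CCAAT boxes, the binding site of the factor NF-Y. The sequences are those of RefSeq on GRCh38.p14, each covering the start of the gene and the bases just before it, at chr17:40417847-40418146 for TOP2A and chr3:25664858-25665157 for TOP2B, both on the minus strand. Capitals mark the box, which was searched as CCAAT on both strands and reads ATTGG in the opposite orientation.
TOP2A promoter: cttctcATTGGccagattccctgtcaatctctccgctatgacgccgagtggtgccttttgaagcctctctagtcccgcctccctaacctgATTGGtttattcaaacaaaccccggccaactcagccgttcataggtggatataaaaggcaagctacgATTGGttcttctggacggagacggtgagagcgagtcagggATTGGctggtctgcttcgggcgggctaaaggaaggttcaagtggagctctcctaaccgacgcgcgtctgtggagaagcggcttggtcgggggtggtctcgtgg
TOP2B promoter: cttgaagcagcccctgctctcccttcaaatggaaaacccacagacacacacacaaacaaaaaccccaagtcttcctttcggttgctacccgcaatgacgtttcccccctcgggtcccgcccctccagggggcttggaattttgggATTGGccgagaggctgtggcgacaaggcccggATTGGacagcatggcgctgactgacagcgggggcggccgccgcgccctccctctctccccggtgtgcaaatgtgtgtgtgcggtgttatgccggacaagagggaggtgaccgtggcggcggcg
The TOP2A promoter held 4 boxes and the TOP2B promoter 2, and those of TOP1, TOP3A, TOP3B, TDP1, TDP2, ZNF451 and TOPORS held 0. Of all 27305 promoters of this length in the RefSeq table, 35.7% held at least 1 box, 11.3% at least 2 and 1.04% at least 4. A match is a stretch of letters and not a measured site.

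TOP2B, the type II enzyme targeted by the siRNA (ENSG00000077097, chromosome 3 from 25597978 to 25664909, minus strand), was strongly reduced. Control replicates held 3709 and 3272 of its counts (154.9 and 143.5 CPM), whereas 324 and 268 counts (15.3 and 13.3 CPM) remained after knockdown. Both knockdown values lay far below both control values. The level left was 9.58% of control, a log2 fold change of -3.38 (SE 0.14, 95% interval -3.69 to -3.08, adjusted p = 5.1e-06, edgeR's quasi-likelihood test with Benjamini-Hochberg adjustment over 15356 genes). In bulk RNA, a smaller share of cells that make the transcript and less transcript in each cell cannot be told apart.

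Of the 10 genes, 9 had enough counts to be tested and 2 passed an adjusted p of 0.05, TOP2B and TOP1MT. TOP2B fell and TOP1MT rose. Among all 15356 genes tested, 1665 passed (10.8%), of which 1023 were higher (6.66%) and 642 lower (4.18%) in the knockdown. Without the siRNA target, 1 of 8 tested genes passed (12.5%), close to the share over all genes. The groups did not overlap for 6 of these 8 genes (75.0%, against 54.3% of all genes tested), 4 with higher and 2 with lower values in the knockdown. The median log2 fold change of the 8 genes was 0.14, against -0.0029 over all genes tested.

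**Figure D1:**
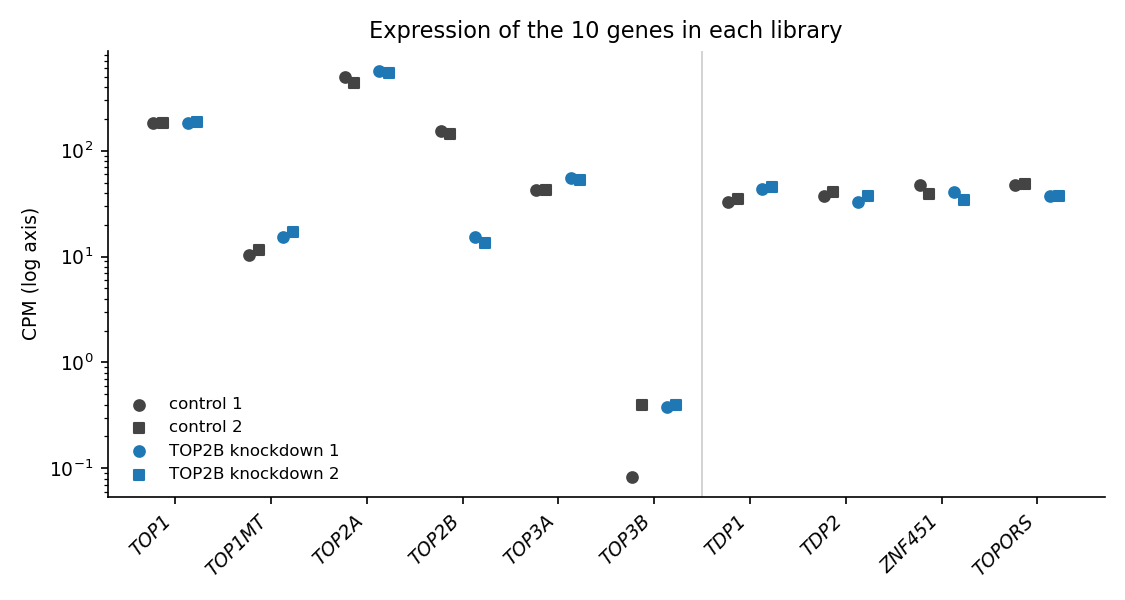
Level of each gene in each library in CPM on a log axis, with the 2 control replicates in grey and the 2 TOP2B knockdown replicates in blue. The line separates the topoisomerases from the genes that act on trapped complexes. TOP2B drops from a mean of 149.2 to one of 14.3 CPM, while the other tested genes stay within 0.57 of control on the log2 scale.

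**Figure D2:**
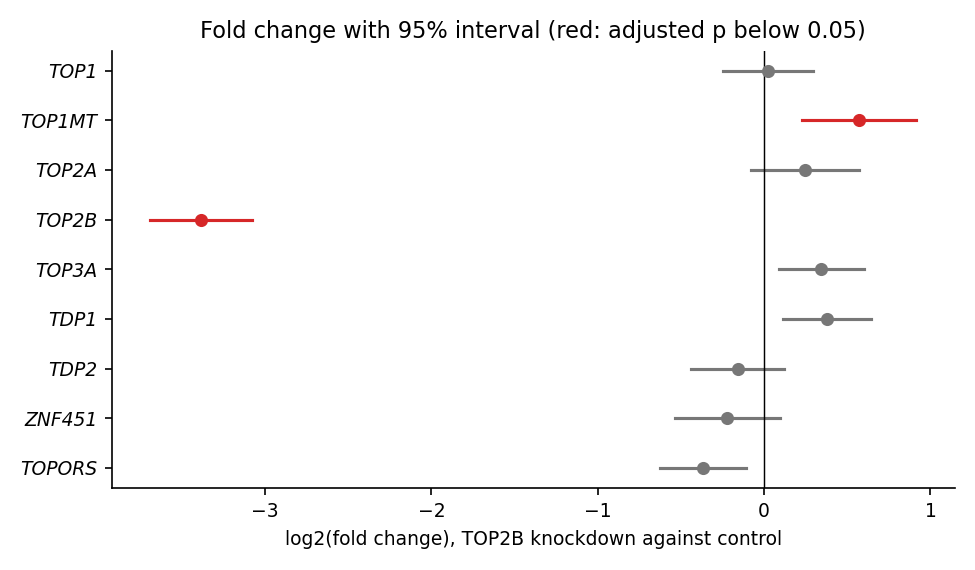
Log2 fold change of TOP2B knockdown over control for the 9 tested genes, with 95% intervals from edgeR. TOP2B and TOP1MT passed an adjusted p of 0.05, and the intervals of TOP1, TOP2A, TDP2 and ZNF451 include 0.

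TOP2A, the type II enzyme of dividing cells (ENSG00000131747, chromosome 17 from 40388525 to 40417896, minus strand), had the most counts of the 10 genes. Its level was 499.2 and 431.6 CPM in control cells, against 565.2 and 538.7 CPM after TOP2B knockdown. Both knockdown values lay above both control values, but the control replicates themselves differed by 0.21 on the log2 scale. The log2 fold change was 0.25 (SE 0.15, 95% interval -0.08 to 0.57) and did not pass (adjusted p = 0.322, edgeR's quasi-likelihood test). Without control replicate 2 it was 0.14 and without control replicate 1 it was 0.35. A rise beyond 0.57 or a fall beyond 0.08 on the log2 scale lies outside this interval.

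TOP2A was set beside 18 genes of mitosis, chosen from general knowledge but with earlier results of these data known. All 18 had a positive log2 fold change (49.8% of all genes tested had one), 15 did not overlap between the groups (83.3%, against 54.3%), and the median was 0.29, against -0.0029. Of the 18, 3 rose (16.7%, against 6.66% of all genes tested), with log2 fold changes of 0.77 for KIF11, a motor that separates the spindle poles, 0.49 for NUSAP1, which bundles spindle microtubules, and 0.41 for CDK1, the kinase that drives entry into mitosis. CDK1 did not pass in the Wald test of DESeq2 (adjusted p = 0.0659), nor with its size factors (0.0576) or without a filter (0.0603) in edgeR. Of the exon bases of NUSAP1, 86.8% overlap another gene. MKI67 had the largest change of the uncalled genes (0.58, adjusted p = 0.13, edgeR's quasi-likelihood test). It passed in the Wald test of DESeq2 (adjusted p = 0.0409), and its knockdown replicates differed by 0.67 on the log2 scale. KIF11 passed whichever library was left out, while CDK1 and NUSAP1 lost the call without each of them in turn. Their log2 fold changes then ran from 0.36 to 0.46 for CDK1 and from 0.45 to 0.53 for NUSAP1. The part of the mitotic genes in the TOP2A value was not tested. Of the 14 mitotic genes with a promoter in the RefSeq table, 12 held at least 1 CCAAT box, 6 at least 2 and 2 at least 4. The genes whose log2 CPM followed TOP2A most closely over the 4 libraries, among 13326 genes compared, were SCN3A, KIF18A, ACSF2, MMP2 and PRPS1P2. With 4 points in 2 groups this is a description, and 156 genes reached a Pearson correlation of at least 0.99 with TOP2A.

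Levels of different genes were compared per kilobase, as CPM divided by the length of all exons of the gene merged. On this scale TOP2A stood at 73.0 ± 7.5 (SD, n = 2) in the control, followed by TOP1 at 18 ± 0.20, TDP2 at 13.1 ± 0.66, TOPORS at 11.7 ± 0.12 and TOP2B at 8 ± 0.43. TDP1 at 5.49 ± 0.25, TOP3A at 5.16 ± 0.033, ZNF451 at 2.64 ± 0.34 and TOP1MT at 1.70 ± 0.13 came next, and TOP3B, whose counts are uncertain as described below, was last at 0.036 ± 0.033. No neighbours in this order overlapped in their control replicates. In the knockdown TOP2B took rank 9 of 10, at 0.766 ± 0.076, with only TOP3B below it, and the knockdown replicates of TOP1MT overlapped those of ZNF451, the next in the order. The place of TOP2B in the control depends on the length used, because its merged exons span 18645 bases and its canonical transcript 5814. By canonical transcript TOP2B ranked the third, at 25.7 ± 1.4, and the control replicates of TDP1 and ZNF451 overlapped. By coding length TOP2B ranked the fourth and the control replicates of TOP3A and ZNF451 overlapped.

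TOP2A made up most of the type II transcripts in the control and nearly all of them in the knockdown. Its share of the summed level of TOP2A and TOP2B per kilobase was 90.4% and 89.8% in the control replicates and 99.1% and 99.2% in the knockdown replicates. The ratio of TOP2A to TOP2B went from 9.11 ± 0.44 to 113 ± 7.4 (SD, n = 2). By canonical transcript the share went from 76.1% to 97.5% and by coding length from 76.8% to 97.6%. The sum itself reached 108% of control by merged exons but 92.5% by canonical transcript and 93.3% by coding length, so its direction depends on the length and no change of the summed type II level is read from these data.

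**Figure D3:**
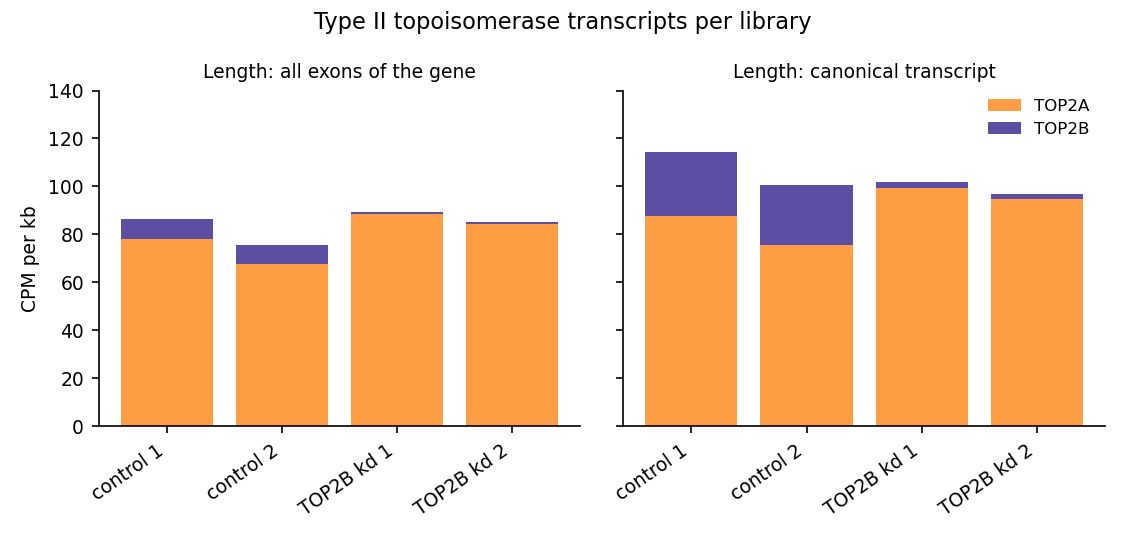
Level of TOP2A and TOP2B in CPM per kilobase in each of the 4 libraries (kd, knockdown), stacked, with length taken as all exons of the gene (left) or as the canonical transcript (right). TOP2A makes up 90.1% of the stack in the control and 99.1% in the knockdown on the left, and 76.1% and 97.5% on the right.

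TOP1, the main type I enzyme of the nucleus (ENSG00000198900, chromosome 20 from 41028822 to 41124487, plus strand), was at 183.7 and 180.9 CPM in control cells and at 183.5 and 187.5 CPM in knockdown cells. The groups overlapped, and the log2 fold change was 0.03 (SE 0.12, 95% interval -0.24 to 0.30, adjusted p = 0.924, edgeR's quasi-likelihood test). Of its 65-base words, 6.24% also occur in another gene, among them the pseudogene TOP1P1.

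TOP1MT, the type I enzyme of mitochondria (ENSG00000184428, chromosome 8 from 143304384 to 143359979, minus strand), was the only topoisomerase besides TOP2B to pass the test. Control cells held 247 and 262 of its counts (10.3 and 11.5 CPM), against 323 and 347 counts (15.2 and 17.2 CPM) in knockdown cells. The groups did not overlap, and TOP1MT rose to 149% of control (log2 fold change 0.57, SE 0.15, 95% interval 0.23 to 0.92, adjusted p = 0.0413, edgeR's quasi-likelihood test). The call was not firm. It was lost in the Wald test of DESeq2 (adjusted p = 0.0746) and without control replicate 1 (0.159), control replicate 2 (0.0530) or TOP2B knockdown replicate 2 (0.213), with log2 fold changes between 0.47 and 0.66 over the libraries left out. No 65-base word of its transcript occurs in another gene. The genes most like TOP1MT over the 4 libraries were HES6, RILPL1, CRAT, AP2B1 and SMIM20, with 321 genes at a Pearson correlation of at least 0.99.

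TOP3A, the type I enzyme that resolves joined DNA strands in the nucleus and in mitochondria (ENSG00000177302, chromosome 17 from 18271428 to 18315007, minus strand), was at 42.2 and 42.6 CPM in control cells and at 54.8 and 52.9 CPM in knockdown cells. The replicates of each group lay close together and the groups did not overlap. The log2 fold change of 0.34 (SE 0.12, 95% interval 0.09 to 0.60) did not pass after adjustment (adjusted p = 0.0876, edgeR's quasi-likelihood test), while the interval of the single gene lies above 0.

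TOP3B, the type I enzyme that also acts on RNA (ENSG00000100038, chromosome 22 from 21957025 to 21982813, minus strand), was barely counted, with 2 and 9 counts in the control replicates and 8 and 8 in the knockdown replicates, and was not tested. Its low count cannot be read as low expression, because 90.8% of its exon bases overlap the antisense gene PPM1F-AS1, which had 131 and 110 counts in the control and 127 and 87 in the knockdown, and no source used here says whether reads were counted by strand. In addition, 63.2% of its 65-base words occur in another gene, among them the copy TOP3BP1, which had 0 counts in every library.

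TOP3A works with the helicase BLM and the scaffold proteins RMI1 and RMI2, which together dissolve crossed DNA strands, and TOP3B with TDRD3, FMR1, FXR1 and FXR2. Of these 7 partners 3 rose (42.9%, against 6.66% of all genes tested), RMI1, BLM and RMI2, which are the 3 partners of TOP3A. RMI1 was at 20.2 and 20.6 CPM in control cells and at 32.7 and 34.9 CPM in knockdown cells (log2 fold change 0.73, SE 0.12, adjusted p = 0.0065, edgeR's quasi-likelihood test). BLM had 14.7 and 13.6 CPM against 22.4 and 21.0 CPM (0.61, SE 0.14, adjusted p = 0.0218, same test). RMI2 had 15.9 and 18.9 CPM against 23.0 and 28.02 CPM (0.55, SE 0.15, adjusted p = 0.0485, same test). The groups did not overlap for any of the 7 partners (54.3% of all genes tested did not overlap), 6 with higher and 1 with lower values, and the median log2 fold change was 0.35. RMI1 passed whichever of the 4 libraries was left out, BLM lost the call without control replicate 2 (adjusted p = 0.0940) or TOP2B knockdown replicate 1 (0.0778), and RMI2 without control replicate 1 (0.189) or TOP2B knockdown replicate 2 (0.266) and in DESeq2 (0.0632). Of the TOP3B partners none passed, the largest difference being that of FXR1 (0.35, adjusted p = 0.102, edgeR's quasi-likelihood test).

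**Figure D4:**
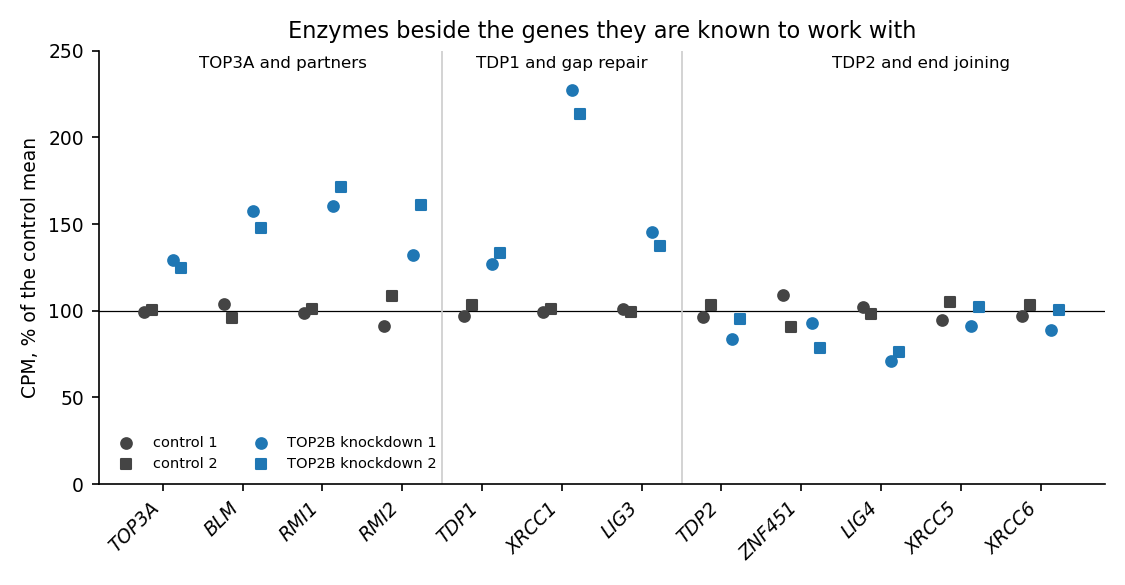
Level in each library as a percent of the control mean, with a line at 100%. TOP3A, TDP1, TDP2 and ZNF451 are drawn beside some of the genes they are known to work with. From single-strand break repair and end joining only called genes are drawn, besides XRCC5 and XRCC6, which were chosen after their values were seen. Other uncalled genes of these lists, such as APTX, POLB, PARP1 and PARP2, are left out. The knockdown replicates of TOP3A, BLM, RMI1 and RMI2 lie between 125% and 171% of control, those of XRCC1 at 214% and 227%, and those of LIG4 at 71.1% and 76.3%.

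TDP1, which frees DNA ends from TOP1 (ENSG00000042088, chromosome 14 from 89954939 to 90044764, plus strand), was at 33.0 and 35.3 CPM in control cells and at 43.3 and 45.5 CPM in knockdown cells. The groups did not overlap, and the log2 fold change of 0.38 (SE 0.12, 95% interval 0.11 to 0.64) did not pass (adjusted p = 0.0720, edgeR's quasi-likelihood test).

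The gap that TDP1 leaves is closed by the single-strand break repair genes, of which 2 of 7 rose (28.6%, against 6.66% of all genes tested). XRCC1, the scaffold of this repair, was at 21.3 and 21.8 CPM in control cells and at 49.0 and 46.0 CPM in knockdown cells, the largest rise among the wider lists (log2 fold change 1.14, SE 0.12, adjusted p = 0.00079, edgeR's quasi-likelihood test). LIG3, the ligase that XRCC1 binds, had 24.7 and 24.3 CPM against 35.7 and 33.7 CPM (0.50, SE 0.12, adjusted p = 0.0289, same test). Exon bases shared with another gene on either strand make up 28.2% for XRCC1 and 30.5% for LIG3, and on the same strand 8.16% and 0%. Without a stated strand setting, reads from the shared bases may be miscounted or left out. XRCC1 passed whichever library was left out, and LIG3 lost the call without each of the 4 in turn, with log2 fold changes between 0.46 and 0.53. Of the 5 genes that did not pass, PARP1, the sensor of single-strand breaks, had a log2 fold change of 0.17 (SE 0.12), which ranged from 0.10 to 0.23 without each library. APTX had the most negative value (-0.35, adjusted p = 0.105, edgeR's quasi-likelihood test).

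TDP2, which frees DNA ends from TOP2 (ENSG00000111802, chromosome 6 from 24649979 to 24666930, minus strand), was at 37.6 and 40.4 CPM in control cells and at 32.7 and 37.1 CPM in knockdown cells. The values came close to each other without overlap, and the log2 fold change was -0.16 (SE 0.13, 95% interval -0.44 to 0.12, adjusted p = 0.468, edgeR's quasi-likelihood test). It ranged from -0.27 to -0.07 without each library in turn. ZNF451, a SUMO ligase that assists TDP2 (ENSG00000112200, chromosome 6 from 57086844 to 57170305, plus strand), had 47.3 and 39.3 CPM against 40.3 and 34.0 CPM. The groups overlapped and the replicates of the same group differed by 0.27 and 0.25 on the log2 scale, more than the log2 fold change of -0.22 (SE 0.14, 95% interval -0.54 to 0.10, adjusted p = 0.367, same test). It ranged from -0.35 to -0.08 without each library in turn.

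TOPORS, a SUMO and ubiquitin ligase first found through its binding to TOP1 (ENSG00000197579, chromosome 9 from 32540544 to 32552586, minus strand), was at 47.9 and 48.6 CPM in control cells and at 37.2 and 37.7 CPM in knockdown cells. Replicates agreed to within 0.022 on the log2 scale and the groups did not overlap, and the log2 fold change of -0.37 (SE 0.12, 95% interval -0.62 to -0.11) did not pass (adjusted p = 0.0735, edgeR's quasi-likelihood test). Its exons overlap other genes over 8.42% of their bases.

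Trapped complexes are marked and cut down before TDP1 or TDP2 can act. Of 12 genes for SUMO, ubiquitin and protease debulking, 1 rose and 1 fell (16.7% called, against 10.8% of all genes tested), and the median log2 fold change was -0.06. FAM111A, a protease that acts on DNA-bound proteins, was at 141 and 121 CPM in control cells and at 193 and 177 CPM in knockdown cells (log2 fold change 0.50, SE 0.13, adjusted p = 0.0394, edgeR's quasi-likelihood test). DDI2, a protease for heavily ubiquitinated proteins, had 42.9 and 40.4 CPM against 32.5 and 27.9 CPM (-0.46, SE 0.13, adjusted p = 0.0470, same test). Other genes overlap 18% of the exon bases of DDI2. FAM111A lost the call in 3 of the 4 fits without a library and DDI2 in all 4. Over these fits the log2 fold change ran from 0.39 to 0.61 for FAM111A and from -0.57 to -0.37 for DDI2. PIAS4, the SUMO ligase that marks trapped TOP1 and TOP2, did not pass (-0.41, adjusted p = 0.0695, edgeR's quasi-likelihood test).

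Of 11 nucleases and their partners 2 rose (18.2%, against 6.66% of all genes tested). The median log2 fold change was 0.27, and 10 of 11 genes had a positive one (90.9%, against 49.8%). The groups did not overlap for 5 of the 11 (45.5%, against 54.3% of all genes tested). RBBP8, also named CtIP, which with MRE11 trims blocked ends, was at 38.8 and 42.6 CPM in control cells and at 66.5 and 72.8 CPM in knockdown cells (log2 fold change 0.77, SE 0.12, adjusted p = 0.00438, edgeR's quasi-likelihood test). MRE11 had 42.6 and 39.3 CPM against 58.2 and 56.7 CPM (0.49, SE 0.12, adjusted p = 0.0272, same test). RBBP8 passed whichever library was left out, and MRE11 lost the call without each of the 4 in turn, with log2 fold changes between 0.43 and 0.55. FEN1, the flap nuclease, had a log2 fold change of 0.40 and did not pass (adjusted p = 0.0660, edgeR's quasi-likelihood test).

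End joining, which seals double-strand breaks such as those left after TDP2, had 7 tested genes. Their median log2 fold change was -0.08, against -0.0029 over all genes tested. Of the 7 genes, 1 passed, with a lower value (14.3% called, against 10.8% of all genes tested). The groups did not overlap for 3 (42.9%, against 54.3%). LIG4, the ligase of this pathway, fell from 42.1 and 40.5 CPM in the control replicates to 29.4 and 31.5 CPM in the knockdown replicates (log2 fold change -0.44, SE 0.12, adjusted p = 0.0441, edgeR's quasi-likelihood test). It lost the call without each library in turn, with log2 fold changes between -0.51 and -0.39. DCLRE1C, the Artemis nuclease, did not pass (0.54, adjusted p = 0.106, edgeR's quasi-likelihood test). Its value depended on the control libraries, with 0.76 (adjusted p = 0.0361, same test) without control replicate 1 and 0.35 (0.497) without control replicate 2. NHEJ1, with 4 counts or fewer in each library, was not tested. The germline genes of the topoisomerase VI type, SPO11, at 0 counts throughout, and TOP6BL, listed in the file as C11orf80, and the protease GCNA gave no call.

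Over these 6 lists, 10 of 46 tested genes passed (21.7%), 8 higher (17.4%, against 6.66% of all genes tested) and 2 lower, the background of lower calls being 4.18%. The median log2 fold change was 0.04 and the groups did not overlap for 29 genes (63.0%, against 54.3%).

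**Figure D5:**
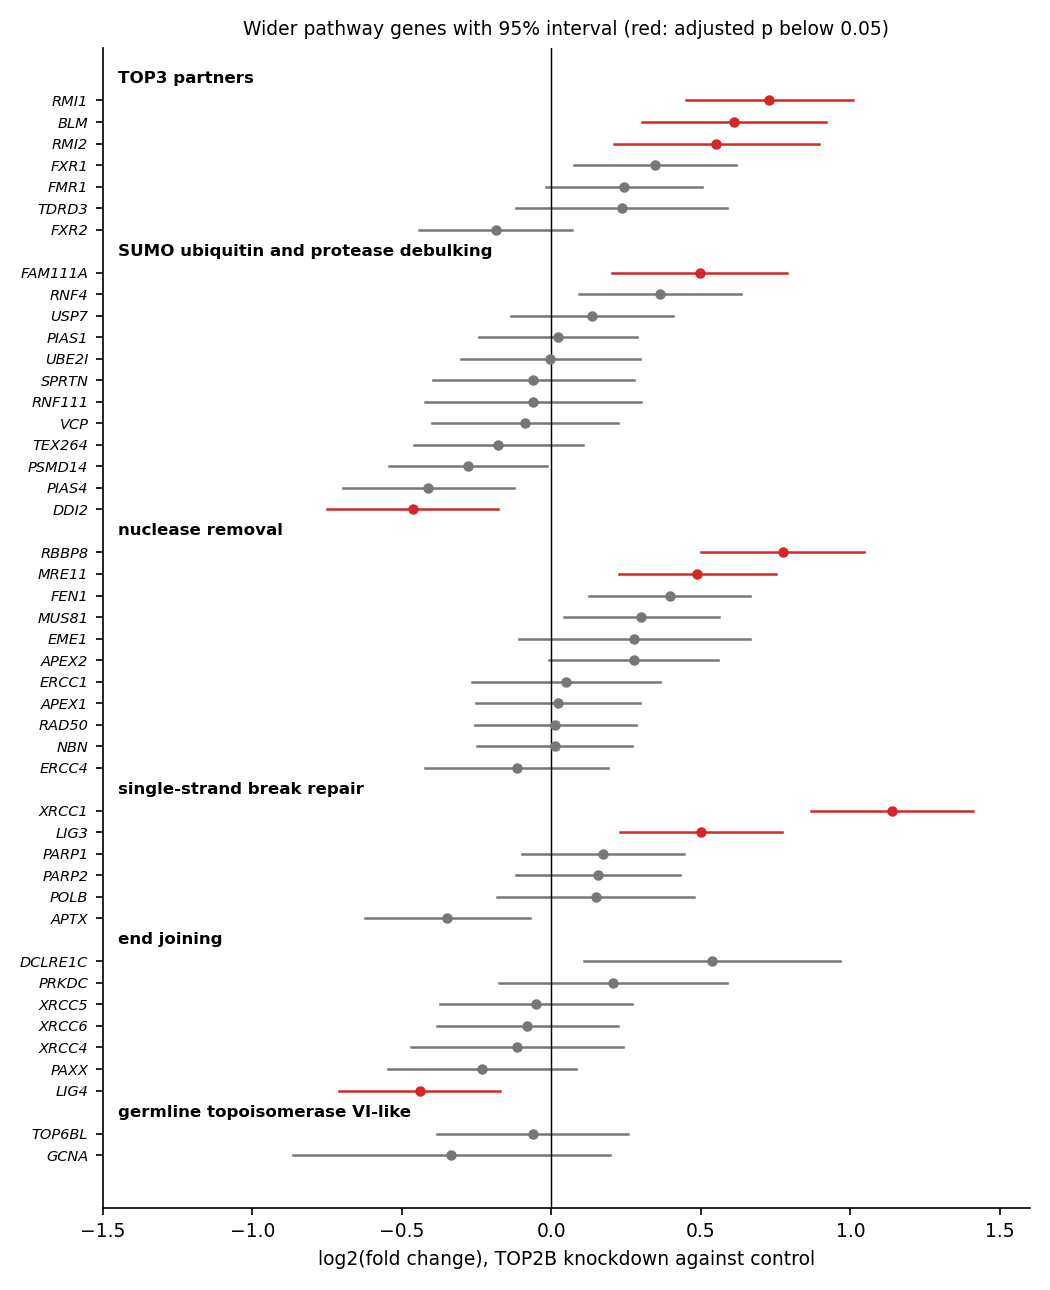
Log2 fold change with 95% intervals from edgeR for tested genes of the 6 wider lists, grouped by list, with genes that passed an adjusted p of 0.05 in red. XRCC1, RBBP8 and RMI1 have the largest values, 1.14, 0.77 and 0.73, and DDI2 and LIG4 the lowest called ones, -0.46 and -0.44.

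Copies of GCAACC, a 6-base word, in the annotated 3′ UTR were counted in the same genes. The word was chosen with earlier results of these data known, and its share among the genes that rose was not computed here. Of the 10 topoisomerase and repair genes, TOP3A held 1 copy and the other 9 none, and of the called wider genes LIG3 held 1. Among the uncalled wider genes, FXR1 held 1 copy and DCLRE1C 2, and further uncalled ones held the word too. Among the 12385 tested genes whose annotated 3′ UTR has 50 bases or more, 23.6% held at least 1 copy. TOP1MT, XRCC1, RMI1, BLM, RMI2, RBBP8, MRE11 and FAM111A rose and held none. Their annotated 3′ UTRs ran from 81 bases in XRCC1 to 4555 in MRE11, and the share of 23.6% was not matched for length. No conclusion is drawn from the absence of the word.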

How the data were processed

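Gene expression was compared between 2 control and 2 TOP2B knockdown RNA-seq libraries. According to the study's methods, the TruSeq RNA kit and 65-bp single-end reads were used, and the authors checked the reads with FastQC 0.11.6, aligned them to GRCh38 with STAR 2.5.4a and counted them on Gencode v24 genes. The deposited counts are raw whole numbers of reads per gene. Their column names are tagged as stranded and paired-end, which differs from the methods, and whether strand was used in the counting is not given in the sources used here. A further 4 columns, identical copies, were not used.

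The test was edgeR 4.0.16 in R 4.3.3 (quasi-likelihood, TMM, no term besides condition, Benjamini-Hochberg adjustment) on the 15356 of 60725 genes that reached 10 counts in 2 or more libraries, and genes were called below an adjusted p of 0.05. Intervals are 95% intervals of this fit, and CPM values are scaled by TMM. The alternatives were the Wald test of DESeq2 1.42.0, its size factors or none in edgeR, no filter, a mean of at least 100 counts, the replicate number as a block, and leaving out each library. The edgeR fit alone was also run on simulated counts, drawn independently with a single dispersion (spread between libraries) of 0.0117 for all genes. The simulation held no replicate effect, so it does not bear on one in these libraries.

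Gene lengths, positions and overlaps were read from GENCODE v44 (GRCh38), and promoters from RefSeq, where TOP1MT was left out. The 10 genes, the wider lists and the markers came from general knowledge, but were chosen with earlier results of these data known. All called genes of the wider lists were named, and per list the uncalled gene with the largest change could be. PARP1, and XRCC5 and XRCC6 in a plot, were chosen after their values were seen. The values of 1 gene of the wider lists are not reported here and it is left out of the plots, while it stays in the counts and medians of its list.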

Additional observations from a re-analysis of the deposited data

How the results depend on the processing

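With 2 libraries per group, a fit without a library assumes that the lone library of a group varies like the other group. The number of the 10 genes called was 2, against 1 with DESeq2 and 7 with the replicate block. With the block, 6786 of the 15356 genes tested were called, against 1665 without it. The log2 fold change of TOP1 ran from -0.0052, without TOP2B knockdown replicate 2, to 0.0453, without TOP2B knockdown replicate 1. Those of TOP2A, TDP2 and ZNF451, also uncalled, ran from 0.14 to 0.35, from -0.27 to -0.07 and from -0.35 to -0.08, and that of DCLRE1C from 0.35 to 0.76, with a call without control replicate 1. Without a filter, 985 of 29440 genes tested were called lower and 1358 higher. The main fit called 642 lower and 1023 higher of 15356. Without each library, 697 to 987 genes were called higher and 467 to 534 lower. Of the wider lists, 8 genes were called higher against 4 to 6 without each library, and 2 lower against 1 at a mean of at least 100 counts and 0 to 0 (0 in all 4 fits) without each library. The TOP2A share of the type II level was 90.1% in control and 99.1% in knockdown by merged exons, 76.1% and 97.5% by canonical transcript, 76.8% and 97.6% by coding length, and 89.8% to 90.4% and 99.1% to 99.2% without each library.

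The groups share replicate numbers 1 and 2, but no source used here ties a number to a day or batch. The deviations of same-numbered libraries from their group means correlated at 0.479 across genes. With the replicate number as a block, 3440 genes were called higher and 3346 lower, all 1665 genes of the fit without the block among them. In that fit TOP2A, TOP3A, TDP1, ZNF451 and TOPORS passed with adjusted p of 0.000509, 0.0003, 0.000224, 0.0103 and 0.000237, and 19 wider genes were called higher and 8 lower. With 2 pairs the pairing is not established.

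Named genes with a test, other than MKI67, were followed over the alternatives other than the block and the left-out libraries. Of their values, 136 kept their direction and side of the threshold and 8 lost the call. These were TOP1MT, RMI2 and CDK1 in DESeq2, RMI2 and CDK1 with DESeq2 size factors, CDK1 without a filter, and RMI2 and DDI2 at a mean of at least 100 counts. At these depths TOP3B and NHEJ1 could not be tested.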
